A study of Homo sapiens with 4 samples.

Results

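The proteasome genes described here are the 45 of 28729 genes in the table whose Ensembl identifier carries a protein-coding PSMA, PSMB, PSMC, PSMD, PSME, PSMF or PSMG symbol followed by a number. GENCODE 29 holds 48 such symbols. PSMA8, PSMB3 and PSMB11 are not analysed here, so the counts and means of the beta genes and the core given below lack PSMB3, a subunit of the standard core. Pseudogenes and antisense genes with similar names were not counted. RNA sequencing was performed on 4 libraries of TU-177, an established human cell line of laryngeal squamous cell carcinoma (LSCC). Libraries sh_NC 1 and sh_NC 2 came from cells transduced with a negative-control lentivirus, and libraries sh_SKA3 1 and sh_SKA3 2 from cells transduced with a lentivirus for an shRNA against SKA3. All of the cells had been selected with puromycin and belong to 1 line, and the labels do not say whether replicates were separate cultures, so p-values measure the spread between these samples, which may be technical. SKA3 encodes a subunit of the SKA complex, which holds kinetochores on spindle microtubules during mitosis.

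The proteasome is the protease that degrades proteins tagged with ubiquitin. Its barrel-shaped core is built from rings of alpha subunits (PSMA genes), which form the gate, and rings of beta subunits (PSMB genes), some of which cut peptide bonds, while the cap (PSMC and most PSMD genes) binds, unfolds and feeds in the substrate. Interferon induces an alternative set of catalytic beta subunits, which makes the immunoproteasome known for producing peptides for MHC class I, and separate chaperones (PSMG genes and some PSMD genes) assemble the particle without staying in it.

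The library sizes behind the deposited values, inferred from the FPKM values and exon lengths, ranged from 9015056 to 11966130 reads. SKA3 itself was at 9.40 and 9.64 FPKM (fragments per kilobase of exon, scaled to library size) in the sh_NC libraries and at 3.77 and 4.12 in the sh_SKA3 libraries, a log2 fold change of -1.09 ± 0.07 (SE, limma, adjusted p = 0.00806), so the labels hold for the targeted gene. Of 7 squamous epithelial markers, KRT5, KRT6A and KRT14 were at or near 0 in each library, TP63 and CDH1 were under 0.6 FPKM, EPCAM lay between 2.73 and 2.95, and KRT17, a keratin of stratified epithelia, fell from 45.6 and 49.1 to 29.4 and 35.7 (limma, adjusted p = 0.0396, and between 0.0596 and 0.133 with any 1 library left out). Defining keratins of squamous epithelium were thus absent or nearly so, and the 7 markers summed to 49.0 and 53.0 FPKM in sh_NC and to 33.3 and 39.2 in sh_SKA3, nearly all of it KRT17. Of 12 listed markers of other cells with a value, 3 were tested and 1 was called: DCN, a matrix proteoglycan of fibroblasts, fell from 8.40 and 8.36 to 2.48 and 2.35 FPKM (limma, adjusted p = 0.00650, and between 0.0313 and 0.0660 with 1 library left out). The other mesenchymal markers tested lay on both sides, with COL1A1 at 3.22 and 3.99 FPKM in sh_NC and at 2.71 and 2.66 in sh_SKA3, and PDGFRB at 2.88 and 2.46 in sh_NC and at 3.19 and 4.13 in sh_SKA3 (limma, adjusted p = 0.140 and 0.166, and 0.0116 and 0.0167 by limma voom). The immune markers PTPRC, CD68, HLA-DRA and LYZ were at or near 0, and the 12 markers summed to 16.0 and 16.2 FPKM in sh_NC and to 9.90 and 10.2 in sh_SKA3. The part of these marker changes in the results below was not tested, and in bulk RNA fewer cells of a type and less RNA per cell cannot be told apart.

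Of the 45 proteasome genes, 42 had a mean of at least 1 FPKM and entered the comparison of sh_SKA3 with sh_NC, which was fitted over 12645 genes with limma on log2(FPKM + 1). Changes on this scale are log2 fold changes of FPKM + 1, which understate the change of genes with low values. After Benjamini-Hochberg adjustment at 0.05, 2 proteasome genes were lower in sh_SKA3, PSMG3 and PSMB8, beside 6.11% of all genes tested. None were higher, beside 6.16% of all genes tested. At an unadjusted p under 0.05, 8 proteasome genes were lower and 5 were higher, beside 15.1% and 16.2% of all genes. By limma voom on whole reads recovered from the FPKM values, an alternative chosen after seeing the data, 6 were lower and 3 were higher, beside 12.3% and 13.9%. The libraries of the groups did not overlap for 13 lower and 10 higher proteasome genes, beside 29.2% and 32.3% of all genes (61.6% in either direction), and overlapped for the other 19. The shares of lower genes lie near those of all genes, while those of higher genes lie under them, a difference that was not tested. The median change over the 42 genes was -0.02 on the log2(FPKM + 1) scale, against 0.01 over all genes tested. For 36 of the 42 the 95% interval lay within 0.5 of no change in both directions, beside 7659 of the 12645 genes tested. The 36 included all 11 tested core genes and all 17 cap genes.

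**Figure D1:**
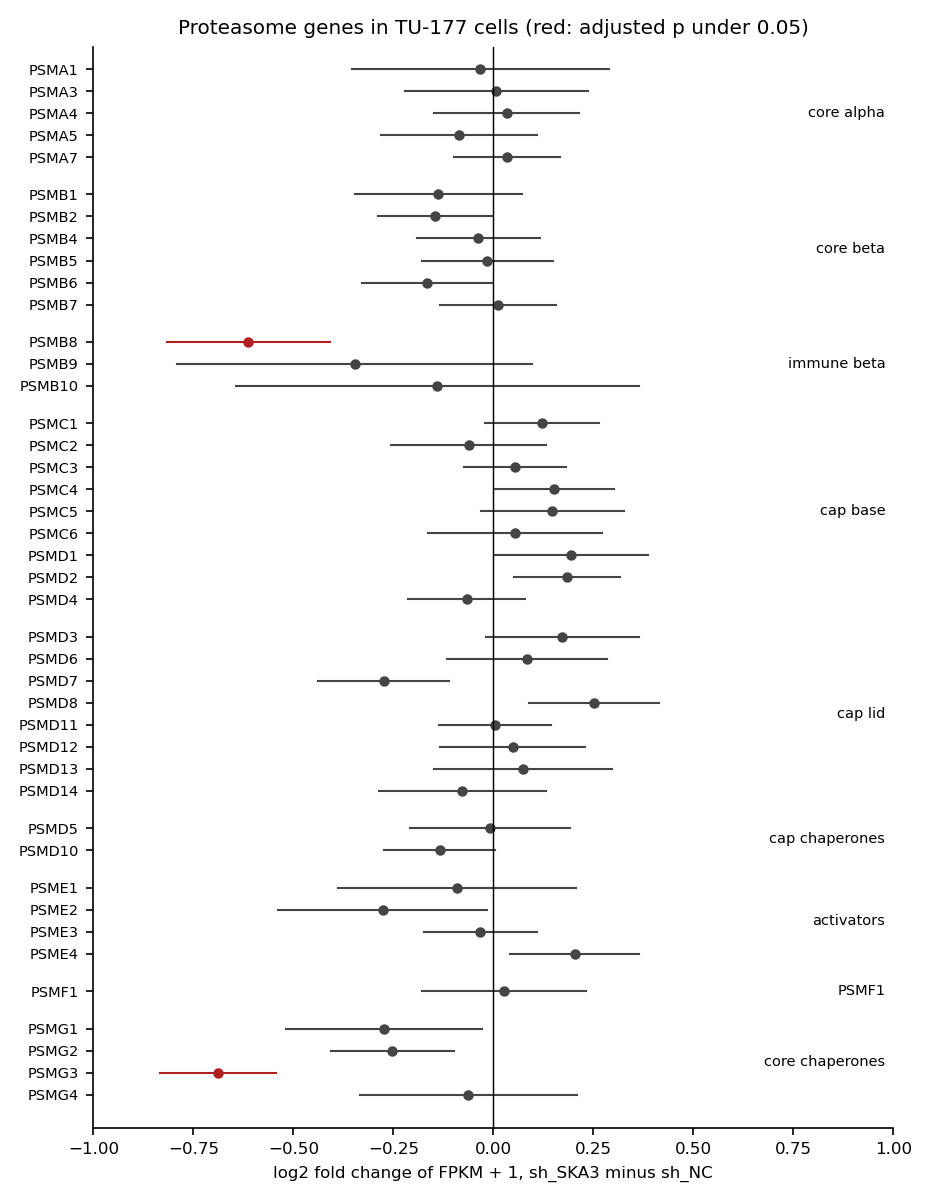
The horizontal axis gives the log2 fold change of FPKM + 1 (sh_SKA3 minus sh_NC) of the 42 tested proteasome genes, ordered by their role. Points are limma estimates with 95% intervals, and the red points, PSMB8 and PSMG3, are those with an adjusted p under 0.05, at -0.61 and -0.69.

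PSMG3 (ENSG00000157778, GRCh38 chr7:1567330-1571005, minus strand) encodes a chaperone that works with PSMG4 when the alpha ring of the core is assembled. Its level was 37.3 and 37.0 FPKM in the sh_NC libraries (874 and 654 reads) and 22.3 and 23.1 in the sh_SKA3 libraries (445 and 533 reads). Both sh_SKA3 libraries were lower than both sh_NC libraries, and the gap was far wider than the distance between replicates. The mean fell by 38.9%, and the log2 fold change was -0.69 ± 0.06 (SE, 95% interval -0.83 to -0.54, limma, Benjamini-Hochberg adjusted p = 0.00932). This was the 368th lowest fold change of the 12645 genes. Without sh_NC 1, sh_NC 2 or sh_SKA3 1 the adjusted p was 0.0676, 0.0601 or 0.0591, and without sh_SKA3 2 it was 0.0479, with changes between -0.71 and -0.66.

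The other chaperones of the core had smaller differences. PSMG1, which forms a pair with PSMG2 that brings alpha subunits together, was at 33.8 and 30.8 FPKM in sh_NC and at 28.6 and 24.5 in sh_SKA3. Its sh_SKA3 libraries were both lower, with a log2 fold change of -0.27 ± 0.10 (SE, limma, adjusted p = 0.130). PSMG2 was at 15.3 and 15.1 FPKM in sh_NC and at 12.7 and 12.5 in sh_SKA3, also without overlap, with a change of -0.25 ± 0.06 (SE, limma, adjusted p = 0.0573). Neither passed the threshold in this fit, while both passed by limma voom (adjusted p = 0.0191 for PSMG1 and 0.0430 for PSMG2). PSMG4, the partner of PSMG3, was at 2.45 and 2.29 FPKM in sh_NC and at 2.14 and 2.31 in sh_SKA3, so its groups overlapped, with a change of -0.06 ± 0.11 (SE, limma, adjusted p = 0.731). The 4 chaperone genes summed to 88.8 and 85.2 FPKM in sh_NC and to 65.8 and 62.4 in sh_SKA3, and their median change was -0.26. POMP, the maturation factor that leads the beta subunits into the core, was at 100.4 and 100.2 FPKM in sh_NC and at 109.3 and 102.0 in sh_SKA3 (0.07 ± 0.06, SE, limma, adjusted p = 0.454).

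PSMB8 (ENSG00000204264, GRCh38 chr6:32840717-32844703, minus strand) encodes the immunoproteasome subunit that takes the place of PSMB5, the chymotrypsin-like subunit of the standard core. It lies in the MHC class II region beside PSMB9, TAP1 and TAP2. Its level was 20.6 and 22.2 FPKM in the sh_NC libraries (494 and 402 reads) and 14.4 and 13.0 in the sh_SKA3 libraries (293 and 307 reads). The groups did not overlap, and the difference was several times the distance between replicates. The mean fell by 36.2%, and the log2 fold change was -0.61 ± 0.08 (SE, 95% interval -0.81 to -0.41, limma, Benjamini-Hochberg adjusted p = 0.0182), the 467th lowest of the 12645 genes. The direction held without each of the 4 libraries (-0.68 to -0.54), but in none of these fits did it pass the threshold (limma, adjusted p between 0.0641 and 0.0778), nor did it without a filter on low values (adjusted p = 0.0647). In GENCODE 29, 20.6% of the exon bases of PSMB8 are shared with the genes PSMB8-AS1 and PSMB9 on the opposite strand, and whether counting used strand is not given in the sources used here. PSMB8-AS1 held 12 and 4 reads in sh_NC and 4 and 1 in sh_SKA3.

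The other catalytic subunits of the immunoproteasome were expressed at far lower levels. PSMB9, which replaces PSMB6, was at 1.47 and 1.77 FPKM in sh_NC and at 1.28 and 0.856 in sh_SKA3, from 54, 49, 40 and 31 reads. Both sh_SKA3 libraries were lower, and the change of -0.35 ± 0.17 did not pass the threshold (SE, limma, adjusted p = 0.243). This scale compresses low values: the mean of PSMB9 was 1.62 FPKM in sh_NC and 1.07 in sh_SKA3, a difference of -34.1%, and the log2 fold change by limma voom was -0.62 for PSMB9 (adjusted p = 0.105) beside -0.65 for PSMB8. PSMB10, which replaces PSMB7, was at 1.71 and 1.02 FPKM in sh_NC and at 1.06 and 1.19 in sh_SKA3, from 38, 17, 20 and 26 reads. Its groups overlapped, with a change of -0.14 ± 0.20 (SE, limma, adjusted p = 0.672). The 95% intervals on the log2(FPKM + 1) scale run from -0.79 to 0.10 for PSMB9 and from -0.64 to 0.37 for PSMB10. A gene of GENCODE 29 on the same strand shares 34.8% of the exon bases of PSMB10. The 3 immunoproteasome genes summed to 23.8 and 25.0 FPKM in sh_NC and to 16.7 and 15.0 in sh_SKA3, and most of that sum was PSMB8.

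The standard catalytic genes were expressed at 39.7 FPKM or more in every library. PSMB5 was at 42.5 and 39.7 FPKM in sh_NC and at 41.4 and 39.8 in sh_SKA3, with overlapping groups and a change of -0.02 ± 0.06 (SE, limma, adjusted p = 0.895). PSMB6, the caspase-like subunit, was at 114.4 and 105.2 FPKM in sh_NC and at 98.6 and 96.9 in sh_SKA3. Its groups did not overlap, and the change of -0.17 ± 0.06 did not pass the threshold (SE, limma, adjusted p = 0.155). PSMB7, the trypsin-like subunit, was at 152.0 and 145.9 FPKM in sh_NC and at 153.6 and 146.8 in sh_SKA3, with overlapping groups and a change of 0.01 ± 0.06 (SE, limma, adjusted p = 0.910).

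**Figure D2:**
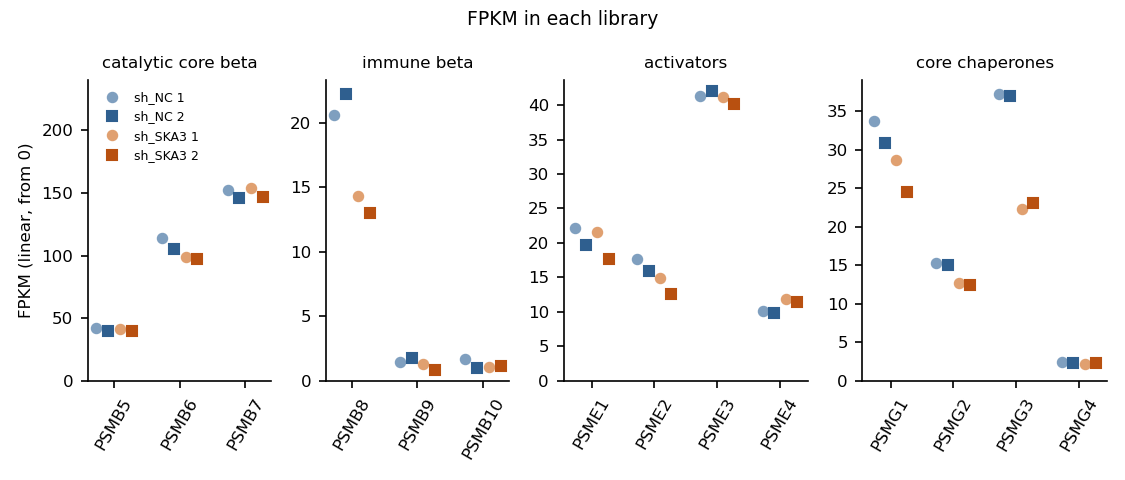
The vertical axes give FPKM on linear scales from 0 for the catalytic beta genes of the standard core, those of the immunoproteasome, the activators and the chaperones of the core. Each point is 1 library, and for PSMB8 and PSMG3 the sh_SKA3 points (14.4 and 13.0, and 22.3 and 23.1 FPKM) lie well under the sh_NC points.

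FPKM is a level per length, so an immunoproteasome gene can be set against the gene it replaces within a library. The percentages depend on the exon lengths behind the values, inferred as 2006 bases for PSMB8 and 1765 for PSMB5. These lengths are the same in each library. The FPKM of PSMB8 was 48.4% and 56.1% of that of PSMB5 in the sh_NC libraries and 34.7% and 32.6% in the sh_SKA3 libraries. The groups did not overlap, and the difference in the log2 ratio of FPKM + 1 was -0.60, with means of -0.91 ± 0.14 (SD, n = 2) in sh_NC and -1.51 ± 0.06 (SD, n = 2) in sh_SKA3. The exact two-sided permutation test over the 4 libraries gave p = 0.333, the smallest that 2 samples against 2 allow. The ratio of PSMB9 to PSMB6 was 1.28% and 1.68% in sh_NC and 1.298% and 0.883% in sh_SKA3 (exact permutation p = 0.667). The ratio of PSMB10 to PSMB7 was 1.13% and 0.698% in sh_NC and 0.691% and 0.810% in sh_SKA3 (exact permutation p = 0.667). In TU-177 cells the only one of these immunoproteasome genes with a level above a few percent of its counterpart was PSMB8, in all 4 libraries.

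**Figure D3:**
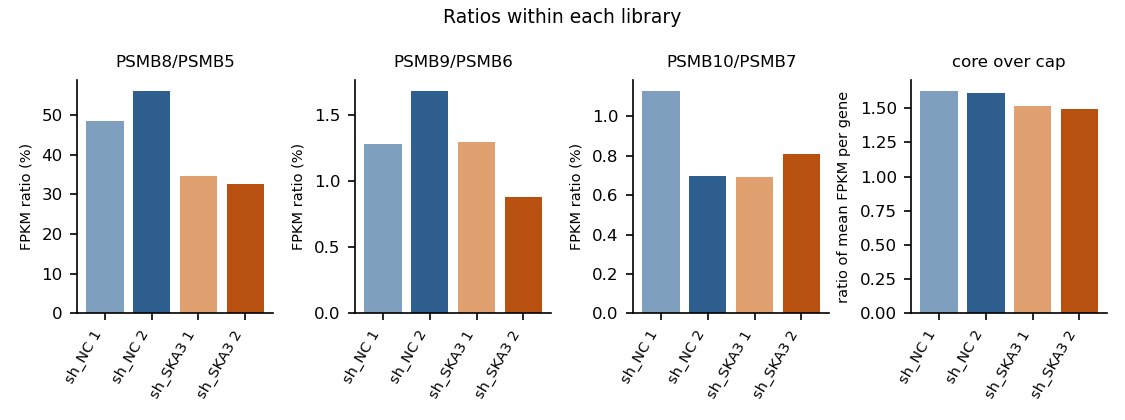
The bars start at 0 and give, for each library, the FPKM ratio in percent of each immunoproteasome gene to the gene it replaces, and the ratio of the mean FPKM per gene of the core to that of the cap. PSMB8 over PSMB5 was lower in both sh_SKA3 libraries (34.7% and 32.6%) than in both sh_NC libraries, and the core-to-cap ratio shifted slightly.

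In the standard core none of the 11 tested genes passed the threshold in either direction, and their changes lay between -0.17 (PSMB6) and 0.03 (PSMA7) with a median of -0.03. PSMA7, the most strongly expressed proteasome gene, was at 247.7 and 256.7 FPKM in sh_NC and at 256.0 and 260.4 in sh_SKA3 (0.03 ± 0.05, SE, limma, adjusted p = 0.701). PSMA5 had the lowest change of the alpha genes, at 45.1 and 41.3 FPKM in sh_NC and at 42.5 and 38.9 in sh_SKA3, with overlap (-0.09 ± 0.08, SE, limma, adjusted p = 0.495). All 5 tested alpha genes had overlapping groups, as did 4860 of the 12645 genes tested. Of the 6 beta genes, 5 had a negative change, beside 6125 of the 12645 genes. The groups of PSMB1, PSMB2 and PSMB6 did not overlap, all of them lower, beside 29.2% of all genes tested. Their changes were -0.14, -0.15 and -0.17. None of these passed the threshold (limma, adjusted p between 0.152 and 0.311).

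PSMA2, PSMA6 and PSMD9 were under the filter. PSMA2 was at 0.784 and 0.790 FPKM in sh_NC and at 0.940 and 0.6997 in sh_SKA3. PSMA6 was at 0.245 and 0.154 FPKM in sh_NC and at 0.425 and 0.236 in sh_SKA3. These values are out of line with PSMA3, PSMA4, PSMA5 and PSMA7, since PSMA2 and PSMA6 encode subunits of the same ring of the core that every cell uses. PSMD9, a chaperone of the cap, was at 0.343 and 0.202 FPKM in sh_NC and at 0.347 and 0.406 in sh_SKA3. In GENCODE 29, genes on the same strand share 14.6% of the exon bases of PSMA2, 14.1% of PSMA6 and 19.9% of PSMD9. The part of this in their low values was not tested, and they are left out of the order of levels below. PSMA1, an alpha gene that passed the filter, was also low, at 5.38 and 4.095 FPKM in sh_NC and at 4.61 and 4.55 in sh_SKA3. A gene on the same strand shares 24.7% of its exon bases. PSMA1 is kept in the counts of the core and in the order of levels.

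In the cap 13 of 17 genes had a positive change, the median was 0.07 and none passed the threshold. The groups did not overlap for 9 higher and 2 lower cap genes, beside 32.3% and 29.2% of all genes tested. The base, which holds the ring of ATPases encoded by PSMC1 to PSMC6, had a median of 0.12. PSMD1, the scaffold subunit with the highest change of the base, was at 32.8 and 29.6 FPKM in sh_NC and at 36.9 and 34.7 in sh_SKA3 (0.19 ± 0.08, SE, limma, adjusted p = 0.158). PSMD2, the other large scaffold subunit, was at 76.3 and 76.0 FPKM in sh_NC and at 85.6 and 87.7 in sh_SKA3, without overlap. Its change was 0.18 ± 0.05 (SE, limma, adjusted p = 0.0836), and by limma voom the adjusted p was 0.0364. PSMD4, a ubiquitin receptor, had the lowest change of the base, with 64.4 and 61.4 FPKM in sh_NC and 60.9 and 59.2 in sh_SKA3 (-0.07 ± 0.06, SE, limma, adjusted p = 0.476). Of the 6 ATPase genes, 5 had a positive change, between 0.05 and 0.15, and PSMC2 had one of -0.06.

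The lid, which holds the deubiquitinase PSMD14, had genes at both ends. PSMD8 was at 40.2 and 42.5 FPKM in sh_NC and at 48.0 and 50.8 in sh_SKA3. Both sh_SKA3 libraries were higher, with a change of 0.25 ± 0.06 (SE, limma, adjusted p = 0.0661, and 0.0116 by limma voom). PSMD7, the partner of PSMD14, was at 38.1 and 36.0 FPKM in sh_NC and at 31.2 and 29.7 in sh_SKA3. Both sh_SKA3 libraries were lower, with a change of -0.27 ± 0.06 (SE, limma, adjusted p = 0.0554, and 0.00986 by limma voom). Neither passed the threshold in the fit on FPKM. A gene on the opposite strand shares 30.7% of the exon bases of PSMD7. PSMD14 itself was at 14.5 and 12.7 FPKM in sh_NC and at 13.0 and 12.6 in sh_SKA3, with a change of -0.08 ± 0.08 (SE, limma, adjusted p = 0.565). The remaining lid genes had changes between 0.01 (PSMD11) and 0.17 (PSMD3). Of the chaperones of the cap, PSMD10 was at 39.3 and 38.7 FPKM in sh_NC and at 35.4 and 35.5 in sh_SKA3 (-0.13 ± 0.05, SE, limma, adjusted p = 0.171), and PSMD5 was at 25.6 and 23.5 FPKM in sh_NC and at 25.5 and 23.3 in sh_SKA3, with overlap (-0.01 ± 0.08, SE, limma, adjusted p = 0.955).

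The mean FPKM per gene of the 13 core genes was 1.62 and 1.61 times that of the 17 cap genes in the sh_NC libraries and 1.52 and 1.49 times in the sh_SKA3 libraries. The 13 include PSMA1, PSMA2 and PSMA6, whose low values, out of line with the other alpha genes, lower the mean of the core. The groups did not overlap, although the shift was small. The mean per gene of the core was 74.2 and 72.3 FPKM in sh_NC and 72.1 and 71.1 in sh_SKA3. That of the cap was 45.7 and 44.9 in sh_NC and 47.5 and 47.6 in sh_SKA3, so the core was slightly lower and the cap slightly higher in the sh_SKA3 libraries, with no test of either. Within the core, the mean of the beta genes was 92.9 and 89.5 in sh_NC and 87.0 and 86.45 in sh_SKA3. The mean of the alpha genes was 58.2 and 57.5 in sh_NC and 59.3 and 57.9 in sh_SKA3, so its groups overlapped.

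**Figure D4:**
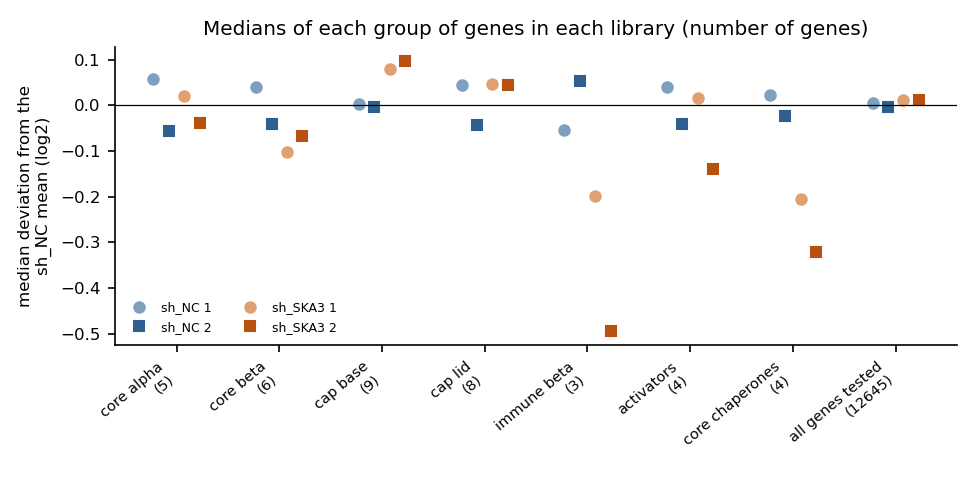
The vertical axis gives, for each library, the median over a group of genes of the difference from the sh_NC mean in log2(FPKM + 1), with the number of genes in brackets. The medians of the immunoproteasome (-0.20 and -0.49) and of the core chaperones (-0.20 and -0.32) in the sh_SKA3 libraries lie lowest, and those of the core and cap lie between -0.10 and 0.10.

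Activators open the gate of the core in place of the cap. PSME1 and PSME2 form the interferon-inducible PA28 ring. PSME1 was at 22.2 and 19.7 FPKM in sh_NC and at 21.6 and 17.7 in sh_SKA3, with overlap (-0.09 ± 0.12, SE, limma, adjusted p = 0.641). PSME2 was at 17.7 and 16.0 FPKM in sh_NC and at 14.9 and 12.6 in sh_SKA3, with both sh_SKA3 libraries lower (-0.28 ± 0.10, SE, limma, adjusted p = 0.142, and 0.0227 by limma voom). PSME3, which forms the nuclear activator PA28 gamma, was at 41.3 and 42.0 FPKM in sh_NC and at 41.2 and 40.2 in sh_SKA3 (-0.03 ± 0.05, SE, limma, adjusted p = 0.729). PSME4, which encodes the activator PA200, was at 10.1 and 9.92 FPKM in sh_NC and at 11.8 and 11.5 in sh_SKA3. Both of its sh_SKA3 libraries were higher, with a change of 0.20 ± 0.06 (SE, limma, adjusted p = 0.101, and 0.0338 by limma voom). PSMF1, an inhibitor that competes with activators for the core, was at 11.6 and 11.8 FPKM in sh_NC and at 12.7 and 11.2 in sh_SKA3 (0.03 ± 0.08, SE, limma, adjusted p = 0.849).

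Across the 42 tested genes the mean level over the 4 libraries fell from 255.2 FPKM (PSMA7) through 198.3 (PSMC3), 149.6 (PSMB7), 114.1 (PSMB4) and 103.8 (PSMB6) to 1.34 (PSMB9) and 1.25 (PSMB10). Of the 41 pairs of neighbours in this order, 31 overlapped in their 4 libraries and 10 were separate. PSMA7, PSMC3 and PSMB7 were each separate from the next in this order, while the libraries of PSMB4 and PSMB6 overlapped.

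**Figure D5:**
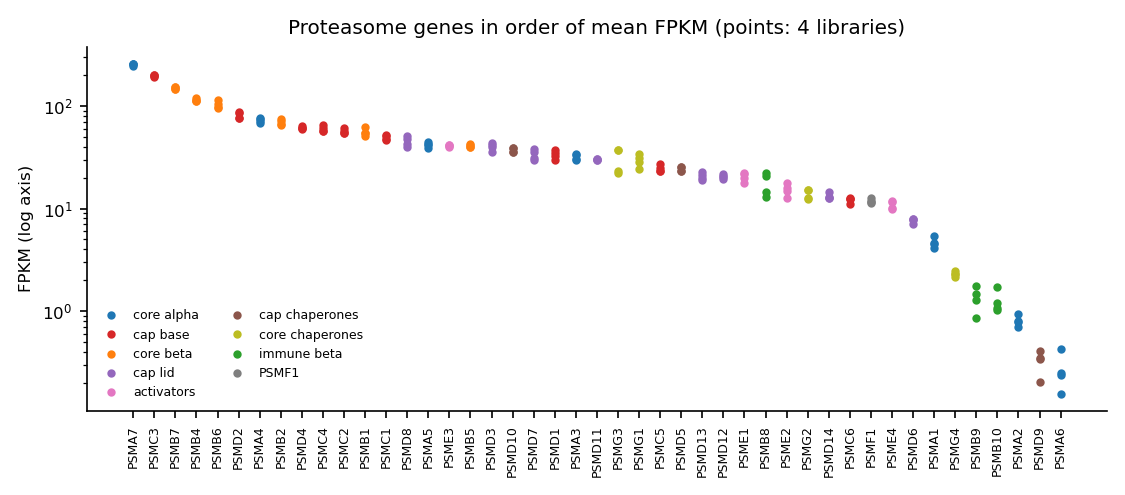
The vertical axis gives FPKM on a log axis for the 45 proteasome genes in order of their mean, with 1 point for each of the 4 libraries and a colour for each group. Levels of the tested genes run from 255.2 FPKM for PSMA7 to 1.25 for PSMB10, the last 3 genes (PSMA2, PSMD9 and PSMA6) are those under the filter, and the standard core and the base of the cap hold the highest places.

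Promoter sequences were read from RefSeq (GRCh38.p14), from 250 bases before to 50 bases from the start on, for 39 of the 45 genes (48 windows). PSMA7, PSMB1, PSMB6, PSMB7, PSMD4 and PSMG3 are named only. The interferon-response pattern GAAANNGAAA, searched on both strands, was held by 7 of the 39 genes (17.9%) and by 4.38% of 27305 genes with a window. The 10-base form GAAAGCGAAA, a subset of it chosen after the matches were seen, was held by 5 of the 39 (PSMB8, PSMB10, PSME1, PSME2 and PSMG4), or 12.8%, and by 34 of the 27305 genes, or 0.125%. Stretches around it are shown for the interferon-inducible catalytic and PA28 genes, since PSMB8 was called lower and the others were not, 5′ to 3′ on the strand of the gene with the pattern in capitals.
PSMB8, second RefSeq start, chr6:32844032-32844061, minus strand: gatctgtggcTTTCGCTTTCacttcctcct
PSMB10, chr16:67936852-67936881, minus strand: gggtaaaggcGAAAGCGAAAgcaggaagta
PSME1, chr14:24136189-24136218, plus strand: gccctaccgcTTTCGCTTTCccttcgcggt
PSME2, chr14:24146619-24146648, minus strand: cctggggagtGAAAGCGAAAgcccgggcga
The same 10 bases stand in PSMB8 and PSME1 on the opposite strand to that in PSMB10 and PSME2. They begin 4 bases before the start in PSMB8, 21 before it in PSMB10 and 28 before it in PSME2, and lie after the start in PSME1. The genes that share them differed in their values: changes were -0.61 for PSMB8, -0.28 for PSME2, -0.14 for PSMB10, -0.09 for PSME1 and -0.06 for PSMG4, of which PSMB8 passed the threshold. A match is a description of these letters and not of a bound site.

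The pattern TGACNNNGC, known from genes under NFE2L1 (NRF1) and NFE2L2 (NRF2), the factors that raise proteasome and antioxidant genes, was held on either strand by 14 of the 39 genes (35.9%) and by 16.1% of all genes with a window. The 13 tested carriers had a median change of 0.03, with 6 negative and 7 positive, and none was called lower, beside 6.11% of all genes tested. The 23 tested genes with a window but without it had a median of -0.03, and 1 of them was called lower. Stretches are shown for 2 core chaperones with lower values and for PSMD3 and PSME4 with higher values, 5′ to 3′ on the strand of the gene with the match in capitals. In PSME4, and in PSMB9 below, the pattern stands on the opposite strand, so the capitals give its reverse complement.
PSMG1, chr21:39183616-39183644, minus strand: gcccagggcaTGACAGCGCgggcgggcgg
PSMG2, chr18:12658689-12658717, plus strand: cagtttcccgTGACCCCGCggccgctctg
PSMD3, chr17:39980760-39980788, plus strand: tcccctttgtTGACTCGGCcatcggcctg
PSME4, chr2:53971009-53971037, minus strand: cccggcggctGCAGCGTCAccagcagagc
The changes of these 4 genes, which were chosen by their direction, were -0.27, -0.25, 0.17 and 0.20. PSMB9 holds the pattern too, in the stretch between its start and that of TAP1, which is transcribed the other way and encodes a subunit of the peptide transporter of the MHC class I pathway.
PSMB9, chr6:32853979-32854160, plus strand: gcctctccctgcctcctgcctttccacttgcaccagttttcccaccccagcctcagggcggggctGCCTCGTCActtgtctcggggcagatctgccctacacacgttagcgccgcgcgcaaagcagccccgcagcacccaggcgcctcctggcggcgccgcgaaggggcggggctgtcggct
TAP1 was at 10.1 and 11.8 FPKM in sh_NC and at 12.6 and 12.0 in sh_SKA3 (0.16 ± 0.09, SE, limma, adjusted p = 0.296), while PSMB9 on the other side had the lower values given above. The pattern TTCNNNGAA, known as a STAT site, was held by 7 of the 39 genes (17.9%) and by 9.38% of all genes with a window, and its 6 tested carriers had a median change of 0.07, with 3 negative and 3 positive. They include PSMB8, at -0.61 and called lower.

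Genes that work with the proteasome were described from lists of 48 genes, of which 47 were tested, 4 were lower and 2 were higher, to be read against the 6.11% and 6.16% of all genes. Among 13 partners and assembly factors with other symbols, FBXO7, an F-box protein that binds the proteasome inhibitor PSMF1, fell from 9.09 and 8.21 FPKM to 6.06 and 6.54 (-0.40 ± 0.08, SE, limma, adjusted p = 0.0418). UBE3C, a ubiquitin ligase bound to the cap, rose from 22.1 and 22.2 FPKM to 29.2 and 28.4 (0.36 ± 0.06, SE, limma, adjusted p = 0.0252). The median of the 13 was 0.07.

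The immunoproteasome's neighbours in antigen presentation were represented by 12 genes, of which 11 were tested and 2 were lower. B2M, the light chain of MHC class I, fell from 340.8 and 319.5 FPKM to 267.3 and 242.8 (-0.37 ± 0.07, SE, limma, adjusted p = 0.0374). HLA-B, a class I heavy chain, fell from 26.4 and 24.8 FPKM to 19.96 and 18.0 (-0.42 ± 0.08, SE, limma, adjusted p = 0.0350), and its reads can be split among near-identical HLA genes. The groups did not overlap for 8 lower and 2 higher genes of the 11, beside 29.2% and 32.3% of all genes, and the median was -0.18. Of 7 genes of the p97 pathway, which extracts proteins for degradation, FAF2 fell from 19.2 and 18.6 FPKM to 14.7 and 15.2 (-0.32 ± 0.06, SE, limma, adjusted p = 0.0378), and the median was -0.03. No gene of the NRF1 list (5 genes, median 0.03) or of the ubiquitin and E1 list (6 genes, median -0.01) passed the threshold. No call on these lists remained in any limma fit that left out a library.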

How the data were processed

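RNA from 4 TU-177 libraries (2 sh_NC, 2 sh_SKA3) was sequenced on an Illumina platform after Trizol extraction. The authors deposited FPKM values per gene. The submitters' processing notes name hg19, Bowtie2 2.2.8, HISAT2, StringTie 1.3.1 and Cuffdiff 2.1.1 without roles. The study's methods also describe other ways of lowering SKA3, and the labels' shRNA was followed here. All value columns belonged to the 4 libraries. Symbols and positions came from GENCODE 29 (GRCh38), which held 27199 of the 28729 identifiers, so gene models may differ from those behind the values.

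Values were compared with limma 3.58.1 in R 4.3.3 (lmFit, eBayes with a trend, Benjamini-Hochberg, threshold 0.05) on log2(FPKM + 1) for the 12645 genes whose mean FPKM was 1 or more. Group medians and counts were described without a test, and ratios by exact permutation. Whole reads were recovered for 99.94% of the genes tested from the steps of the FPKM values (within 0.01 reads with a GENCODE length for 61.3%, and within 0.002 reads with a searched length for 38.6%), and were tested with limma voom. Their sum over genes exceeded the inferred library size in each library, with 12188233 beside 11966130 reads in sh_NC 1. The reason was not tested. Replicates differed beyond counting noise (chi-square per degree of freedom 3.67 in sh_NC and 3.65 in sh_SKA3) and were kept apart. Values in every library are given for genes past the threshold, PSMB5 to PSMB10, PSME1 to PSME4 and the highest and lowest gene of each group, and of the lists the genes past the threshold, of which 1 is not reported here. PSMA1, PSMG1, PSMG2, PSMD2, PSMD14, POMP, TAP1, TAP2, PSMB8-AS1, the markers and the untested genes were added after their values were seen. Members and lists were chosen with earlier results of these data known. The fit was repeated with other scalings (median-of-ratios, quantile), other filters (none, or mean FPKM 5 or more), a pseudocount of 0.1, other variance models (without trend, robust), a replicate block, other thresholds, and with each library left out. On simulated data in which 193 of 12430 genes had a 2-fold change, limma recovered 144 of them with 9 false calls. Limma voom recovered 189 of 200 such changes with 3 false calls over 12637 genes. In the real data limma called 12.3% of the genes tested, and PSMG3 and PSMB8 changed by less than 2-fold (-0.69 and -0.61). The simulated rates therefore do not give the recovery or the false calls of the fits on the real data. Python 3.11.15 served the remaining steps.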

Additional observations from a re-analysis of the deposited data

How the results depend on the processing

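With all 4 libraries, 355 values of single proteasome genes under an alternative kept their direction and side of the threshold, 15 passed it newly, 1 lost it (PSMB8 without a filter) and 3 changed sign, namely PSMD11 (-0.0021 under median-of-ratios scaling and -0.0102 under quantile normalization) and PSMA3 (-0.0021 under quantile normalization). The median of all genes moved to between 0.0006 and 0.0209. PSMB8 and PSMG3 were both called at every other setting with all libraries.

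Over all genes, lower and higher calls (772 and 779) became 1560 and 1758 with limma voom, 81 and 48 without a filter, 381 and 312 without a trend, 1912 and 2046 at an unadjusted p, and 1356 and 1442 at an adjusted p under 0.1. At a mean FPKM of at least 5 the all-gene calls were 887 lower and 993 higher, of 7303 genes. Proteasome genes called lower (2) became 6 with limma voom, 4 at a mean FPKM of at least 5 (PSMB8, PSMD7, PSMG2 and PSMG3), 1 without a filter, 8 at an unadjusted p and 4 at an adjusted p under 0.1, and those called higher (0) became 3, 1, 0, 5 and 2. Listed partner and pathway genes called lower (4) became 12 with limma voom, 8 at a mean FPKM of at least 5 and 0 without a filter or a trend, and those called higher (2) became 6 with limma voom, 1 under quantile normalization and 0 without a filter or a trend. The immunoproteasome median (-0.35) became -0.62 with limma voom, -0.61 at a mean FPKM of at least 5, where PSMB8 alone remained, and -0.58 with a pseudocount of 0.1, at which the PSMB9 to PSMB6 difference (-0.18) became -0.41.

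Replicate numbers were shared by only 2 pairs, and the replicate differences of the groups correlated at 0.10 over the genes tested. The labels do not say that the numbers pair the samples, and this correlation cannot decide it. With the number as a replicate block, 4 proteasome genes were lower (PSMB8, PSMD7, PSMG1 and PSMG3) and 1 higher (PSMD8), among 965 and 1002 genes.

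Leaving out a library left 1 sample in a group, assumed to vary like the others. All-gene calls ranged from 0 to 135 lower and 0 to 46 higher, proteasome calls from 0 to 1 lower, list calls were 0, SKA3 ranged from -1.14 to -1.04 and lost its call without either sh_NC library (limma, adjusted p = 0.0660 and 0.0601). Medians ranged from 0.0138 to 0.1025 for the cap, 0.0803 to 0.1489 for its base and 0.0074 to 0.0958 for its lid, -0.0566 to 0.0157 for all proteasome genes, -0.0646 to 0.0081 for the core, -0.4948 to -0.1981 for the immunoproteasome and -0.1398 to 0.0167 for the activators. The log2 ratio differences ranged from -0.3241 to -0.0388 for PSMB9 to PSMB6 and from -0.3357 to 0.0327 for PSMB10 to PSMB7. Changes of 15 genes reached or crossed 0: PSMF1 -0.055 to 0.1099, PSME1 -0.2294 to 0.0484, PSMC2 -0.1417 to 0.018, PSMC6 -0.0391 to 0.1489, PSMD5 -0.0699 to 0.0536, PSMD12 0 to 0.0971, PSMD13 -0.0072 to 0.1542, PSMD14 -0.1629 to 0.0084, PSMA1 -0.1946 to 0.1303, PSMA3 -0.0901 to 0.1058, PSMA4 -0.023 to 0.0892, PSMB4 -0.0857 to 0.0113, PSMB5 -0.0646 to 0.0336, PSMB7 -0.0205 to 0.0442 and PSMB10 -0.3534 to 0.0742. The causes were not tested. PSMB9 and PSMB10 had 17 to 54 reads in a library.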

Other observations

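The 10 bases GAAAGCGAAA stand in the promoter windows of 34 genes, 5 of them proteasome genes. Of the 29 others, 15 were tested, with a median change of -0.02 on the log2(FPKM + 1) scale, 9 negative and 6 positive. PARP14, an ADP-ribosyltransferase induced by interferon, was lower, from 5.23 and 5.16 FPKM in sh_NC to 3.49 and 3.40 in sh_SKA3 (-0.48, limma, adjusted p = 0.0258). MYD88, an adaptor of Toll-like receptors, was at 5.28 and 4.56 FPKM in sh_NC and at 4.26 and 5.48 in sh_SKA3, with overlapping groups. TAP1 and TAP2, which lie beside PSMB8, hold the 10 bases too, with changes of 0.16 and -0.15 (limma, adjusted p = 0.296 and 0.410). These carriers were looked at after their sequences were seen.

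Genes named like proteasome genes but outside the set had values of their own. PSMG3-AS1, antisense to PSMG3, had 37 and 28 reads in sh_NC and 51 and 64 in sh_SKA3, or 0.494 and 0.496 FPKM against 0.800 and 0.866, which is opposite to the direction of PSMG3. It shares 3.06% of the exon bases of PSMG3, lies under the filter and was not tested. PSMC3IP, a recombination factor that is no proteasome subunit, was at 4.71 and 5.43 FPKM in sh_NC and at 6.07 and 5.90 in sh_SKA3 (0.20, limma, adjusted p = 0.191). The pseudogene PSMD10P1 had 2 and 1 reads in sh_NC and 10 and 5 in sh_SKA3.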
